A study of Homo sapiens with 6 samples.

Results

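The PanCancer Progression Panel of NanoString was used to count 770 transcripts in 2 lines of HCT116 colorectal cancer cells, and 6 of these transcripts belong to epithelial cell junctions that were lower in the line without p21. They were CDH1 of the adherens junction, CLDN4, CLDN7 and TJP3 of the tight junction, and DSC2 and PPL of the desmosome. The 6 genes were chosen by name because their values in these same samples were lower in p21-/- cells, so their differences between the lines are given as a description, without a test. HCT116 is a human colorectal carcinoma cell line. The 3 WT samples carry an intact CDKN1A gene, which encodes the cell cycle inhibitor p21, and the 3 p21-/- samples come from a derivative line in which CDKN1A is disrupted. None of the 6 samples was treated, and the labels count them as biological replicates of each line. As a single p21-/- line was measured, the genotype cannot be told apart from the history of that line. The labels give RPMI medium for both lines, whereas the methods give DMEM for the p21-/- cells, so medium and genotype cannot be told apart if the methods apply.

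Adherens junctions hold neighboring epithelial cells together through E-cadherin, whose cytoplasmic tail binds catenins that connect it to actin. Tight junctions seal the space between cells, with claudins and occludin as membrane strands and ZO proteins as the scaffold underneath, while desmosomes use desmosomal cadherins and plakins to couple the cell border to keratin filaments. In the colon these structures maintain the epithelial barrier, and their loss is a usual component of epithelial–mesenchymal transition (EMT).

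Values are counts of fluorescent barcodes bound to each transcript, normalized by the authors, and values near background had been replaced in each sample by a floor between 25.7 and 34.9 normalized counts. Totals above the floor ran from 867422 to 1187904 barcode counts in the WT line and from 1125126 to 1335467 in the p21-/- line. Values of single samples are given below in the order of replicates 1, 2 and 3. CDKN1A, the disrupted gene, had 4133, 5659 and 4312 normalized counts in the WT line and 460, 409 and 388 in the p21-/- line, or 8.90% of the WT mean, and where its probe lies relative to the disruption is not given in the sources used here. Of the 12 epithelial markers in the table, CDH1 among them, 11 were above the floor in all WT samples and 10 in all p21-/- samples, and their summed level was 37318 to 41764 normalized counts in the WT line and 17927 to 18773 in the p21-/- line. The leukocyte markers (2 in the table) were at the floor in all 6 samples, as were 3 of 4 endothelial markers and 2 of 8 fibroblast markers. The summed level of the fibroblast markers, floor values included, was 418 to 477 normalized counts in WT and 284 to 333 in p21-/- samples. COL1A1 was the single fibroblast marker to exceed the floor in the WT line. Its mean was 215 normalized counts there and 63.8 in the p21-/- line. PDGFRB differed the other way, as it exceeded the floor in no WT sample but in each p21-/- sample (mean 50.3). The positive controls, RNAs spiked into each sample, had a geometric mean of 1601 to 1861 raw counts in WT and 1102 to 1261 in p21-/- samples, and the part of this difference in the values below was not tested.

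The reference promoters (RefSeq, GRCh38.p14) matched 4 of the 6 genes, with 7 windows of 300 bases around annotated gene starts, and CDH1 and PPL had no entry. They were searched on both strands for the E-box CANNTG and, within it, for CAGGTG, the form that repressors of the SNAI and ZEB families are known to bind. Of these windows 4 are shown because the 4 transcripts were all lower in p21-/- cells while the windows differ in how many of these letters they hold. The bases before the gene start (250 in each) are printed 5′ to 3′ in the direction of transcription, with CAGGTG, on either strand, in capitals. The stretch of CLDN4 lies at chr7:73830746-73830995 on the plus strand and that of the downstream start of CLDN7 at chr17:7262479-7262728 on the minus strand. The stretch of the downstream start of TJP3 lies at chr19:3721487-3721736 on the plus strand and that of the upstream start of DSC2 at chr18:31102422-31102671 on the minus strand.
CLDN4: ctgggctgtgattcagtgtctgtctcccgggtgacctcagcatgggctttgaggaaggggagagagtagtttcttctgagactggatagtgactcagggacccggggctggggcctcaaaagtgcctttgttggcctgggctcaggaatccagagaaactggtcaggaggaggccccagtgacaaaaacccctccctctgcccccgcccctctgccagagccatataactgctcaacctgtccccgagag
CLDN7 downstream start: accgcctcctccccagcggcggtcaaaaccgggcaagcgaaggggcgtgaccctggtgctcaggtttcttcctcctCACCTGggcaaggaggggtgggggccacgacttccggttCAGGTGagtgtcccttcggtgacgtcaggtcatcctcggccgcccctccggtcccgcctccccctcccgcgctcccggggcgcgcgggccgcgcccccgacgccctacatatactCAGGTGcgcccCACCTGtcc
TJP3 downstream start: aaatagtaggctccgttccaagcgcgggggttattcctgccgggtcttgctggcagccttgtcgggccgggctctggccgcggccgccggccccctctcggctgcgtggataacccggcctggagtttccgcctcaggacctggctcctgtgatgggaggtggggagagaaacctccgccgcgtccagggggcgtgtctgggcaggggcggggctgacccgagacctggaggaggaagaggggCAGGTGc
DSC2 upstream start: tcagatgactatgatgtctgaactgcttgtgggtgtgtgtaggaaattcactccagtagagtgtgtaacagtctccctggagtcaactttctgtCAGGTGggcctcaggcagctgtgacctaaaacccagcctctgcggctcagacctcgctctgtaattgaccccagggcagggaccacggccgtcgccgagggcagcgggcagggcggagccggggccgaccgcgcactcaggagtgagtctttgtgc

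The downstream start of CLDN7 held 5 matches to CAGGTG in its 300 bases, 4 of them in the printed stretch and 1 beyond the start. As many as 5 or more were found in 33 of the 35116 windows of the reference table, which is 0.0940%. The downstream start of TJP3 and the upstream start of DSC2 held 1 match each, where 20.6% of all windows held at least 1. No match was found in the windows of CLDN4, the upstream start of CLDN7, the upstream start of TJP3 or the downstream start of DSC2. A CANNTG of any form was present in 6 of the 7 windows, against 68.7% of all windows. The grainyhead motif AACNNGTT, which is its own reverse complement and was present in 3.52% of all windows, had no match in the 7. A match describes letters only, as binding was not measured here.

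**Figure D1:**
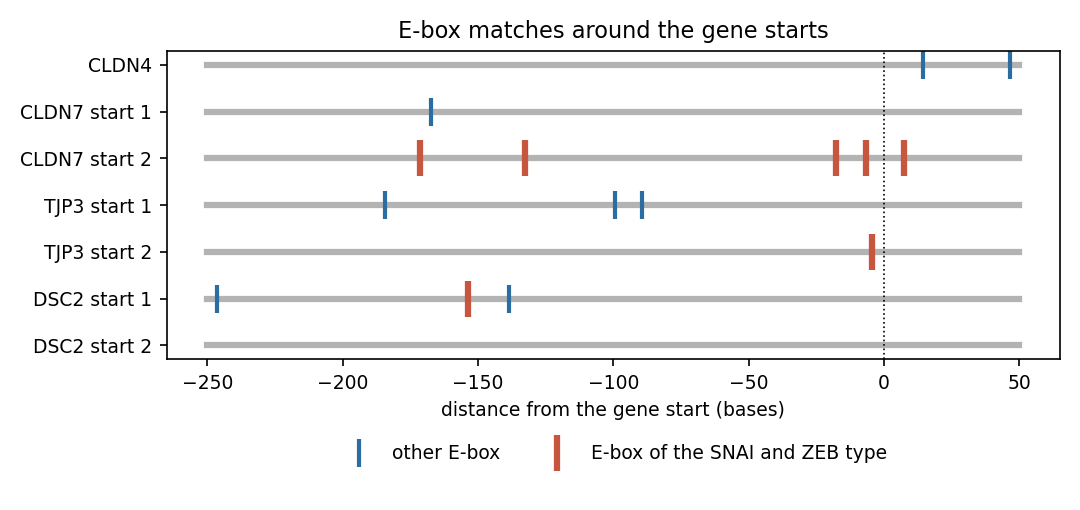
Positions of E-box matches in the 7 promoter windows, as distance in bases from the annotated gene start at 0, with start 1 the upstream and start 2 the downstream start of a gene. Red ticks are CAGGTG on either strand and blue ticks other forms of CANNTG. The downstream start of CLDN7 carries 5 red ticks, the downstream start of TJP3 and the upstream start of DSC2 carry 1 each.

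The adherens junction was represented by CDH1 (GRCh38.p14 chromosome 16, 68737292 to 68835537), which encodes E-cadherin, the adhesion receptor of this junction. CDH1 transcript was at 2254, 2874 and 2933 normalized counts in the WT line and at 271, 284 and 294 in the p21-/- line. All p21-/- samples were below all WT samples, and the lowest WT value was 7.67-fold the highest p21-/- value. On average p21-/- cells held 10.5% of the WT level, and the log2 difference on the log2(value + 1) scale ran from -3.43 to -2.94 over the 9 pairs of a p21-/- with a WT sample. CDH1 was not lost altogether, as in every p21-/- sample it was at least 8.0-fold above the floor of that sample. For each of the 6 junction genes every p21-/- value lay below every WT value, which was also the case for 26.8% of the 770 genes and is fixed here by the choice of genes. Bulk RNA cannot tell fewer cells with a transcript from less transcript per cell.

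The tight junction was represented by both claudins and by TJP3. CLDN4 and CLDN7 encode membrane proteins that line up into the sealing strands. CLDN4 (chromosome 7, 73830996 to 73832690) had 3259, 3674 and 4061 normalized counts across the WT line, against 1142, 1070 and 1099 without p21. The lowest WT sample was 2.85-fold the highest p21-/- sample, with the p21-/- cells at 30.1% of WT on average (log2 difference -1.73, span of the 9 pairs -1.92 to -1.51). CLDN7 (chromosome 17, 7259903 to 7263213) had 3641, 5166 and 4607 normalized counts in the WT line and 1009, 1004 and 944 in the p21-/- line. Its WT samples were the most spread of the 6 genes, with a coefficient of variation of 17.3% against 3.65% in p21-/- samples, but the lines did not overlap and p21-/- cells averaged 22% of WT (log2 difference -2.17, span -2.45 to -1.85).

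TJP3 (chromosome 19, 3708384 to 3750813) encodes ZO-3, a scaffold protein of the cytoplasmic side of the tight junction. It had 1070, 1078 and 1415 normalized counts across the WT line, against 136, 159 and 147 without p21. WT replicate 3 was the high sample, and all p21-/- samples were far below all WT samples, with a mean at 12.4% of the WT mean (log2 difference -2.99, span -3.37 to -2.74). This was the lowest of the 6 transcripts in p21-/- cells relative to the floor, at least 4.02-fold above it. Its smallest value rested on 126 barcode counts, for which counting error alone gives 113 to 162 normalized counts (exact Poisson interval, 95%). The intervals of the p21-/- samples overlapped each other, and none reached that of a WT sample.

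The desmosome was represented by DSC2, which encodes the desmosomal cadherin desmocollin 2, and PPL, which encodes periplakin, a plakin of desmosomes and of the cornified envelope. DSC2 (chromosome 18, 31058840 to 31102421) had 1490, 1422 and 1738 normalized counts in the WT line and 835, 866 and 759 in the p21-/- line. The lines came closer than for any other of the 6 genes, with the lowest WT sample 1.64-fold the highest p21-/- sample and the p21-/- mean at 52.9% of the WT mean (log2 difference -0.91, span -1.19 to -0.72). PPL (chromosome 16, 4882507 to 4937148) had 2295, 2117 and 2379 normalized counts across the WT line, against 186, 218 and 234 without p21. Here the lowest WT sample was 9.06-fold the highest p21-/- sample and p21-/- cells averaged 9.38% of WT (log2 difference -3.41, span -3.67 to -3.17). Of the 6 genes, PPL alone varied more between p21-/- samples (coefficient of variation 11.5%) than between WT samples (5.89%).

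**Figure D2:**
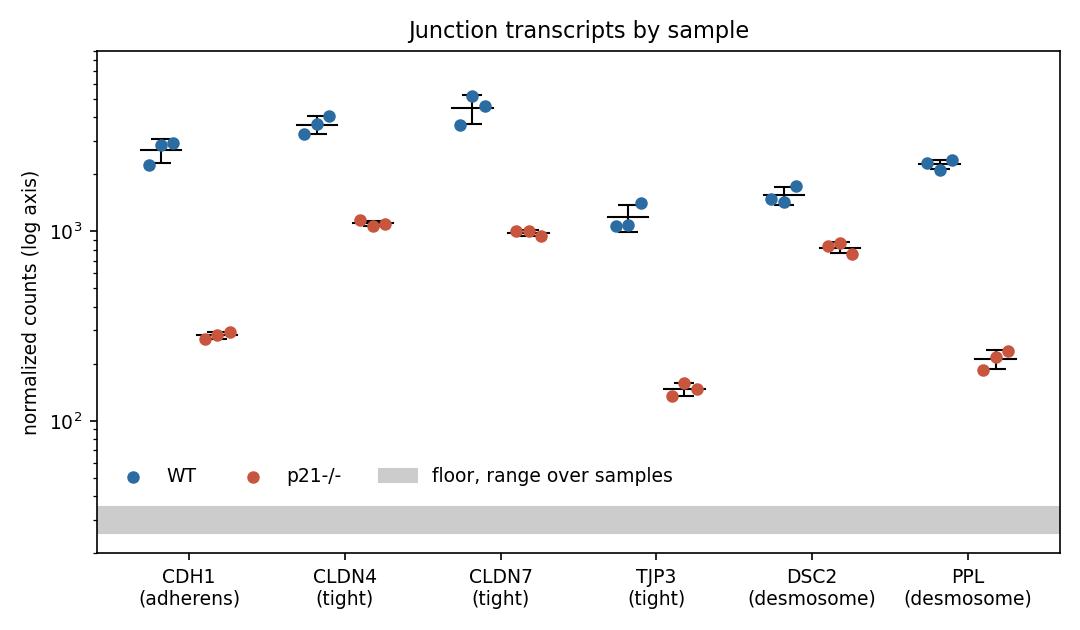
Normalized counts of the 6 junction transcripts on a log axis, 1 point per sample, with the mean and SD of the 3 WT (blue) and 3 p21-/- (red) samples, and the range of the sample floors in gray. No p21-/- point reaches a WT point of the same gene, the gap is narrowest for DSC2 (1.64-fold) and widest for PPL (9.06-fold), and all points lie above the floor.

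Among these 6 genes the size of the difference did not follow the junction type, though they are too few per type to compare the types themselves. In order of the log2 difference the genes were PPL (-3.41), CDH1 (-3.23), TJP3 (-2.99), CLDN7 (-2.17), CLDN4 (-1.73) and DSC2 (-0.91), so that both ends of the order were desmosomal genes and the adherens and tight junction genes lay between them. Neighbors in this order were compared through their ratio within each sample, in which the scaling of a sample cancels. CDH1 and PPL could not be separated, as the log2 ratio of CDH1 over PPL was -0.03, 0.44 and 0.30 in the WT line and 0.54, 0.38 and 0.33 in the p21-/- line. The lines overlapped in this ratio, and it was the single one of the 15 ratios between the genes to do so.

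Within the tight junction, ZO-3 transcript was lower by more than the claudins. The log2 ratio of CLDN7 over TJP3 was 1.77, 2.26 and 1.70 across the WT line, against 2.88, 2.65 and 2.68 without p21. Every p21-/- sample was above every WT sample, with a mean shift of 0.83. The claudins differed less from each other, with a log2 ratio of CLDN4 over CLDN7 between -0.49 and -0.16 in WT and between 0.09 and 0.22 in p21-/- samples, a shift of 0.44 beside a pooled SD of 0.139.

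Within the desmosome, the log2 ratio of DSC2 over PPL was -0.62, -0.57 and -0.45 in the WT line and 2.16, 1.99 and 1.70 in the p21-/- line. The shift of 2.50, a 5.65-fold change of the ratio, was the largest of the 15. The cadherins of both adhesive junctions also parted from each other, as the log2 ratio of CDH1 over DSC2 moved from 0.79 ± 0.211 in WT to -1.53 ± 0.142 in p21-/- samples (SD, n = 3 each), a 4.99-fold change of the ratio. CDH1 and TJP3 moved nearly together, with a shift of -0.24 and a gap between the lines of less than 0.1, from a lowest WT ratio of 1.05 to a highest p21-/- ratio of 1.00.

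**Figure D3:**
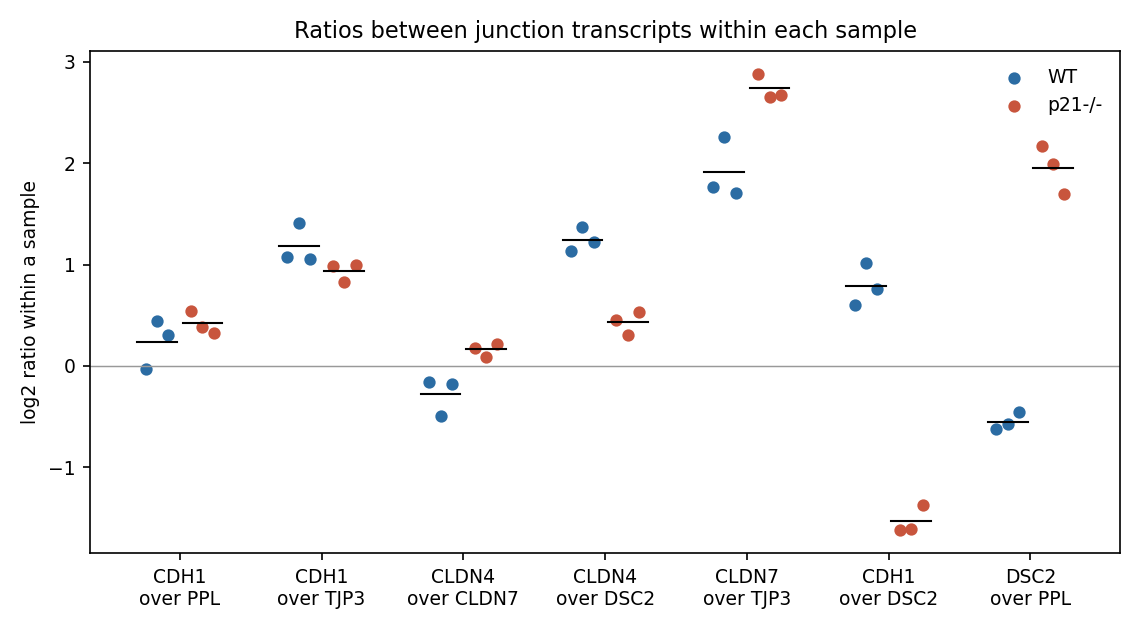
Log2 ratio of 1 junction transcript over another within each sample, 1 point per WT (blue) or p21-/- (red) sample and a line at the mean of each line. The ratio of CDH1 over PPL overlaps between the lines, and that of DSC2 over PPL shifts by 2.50.

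Among the 446 genes that exceeded the floor in every sample, ranked from the most negative log2 difference, PPL was at place 7, CDH1 at 9, TJP3 at 13, CLDN7 at 21, CLDN4 at 36 and DSC2 at 92. The median of the 6 genes was -2.58, where that of the 446 genes was -0.05 and their 5th percentile -2.03. As the genes were chosen by this difference, their place describes its size and supports nothing further.

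**Figure D4:**
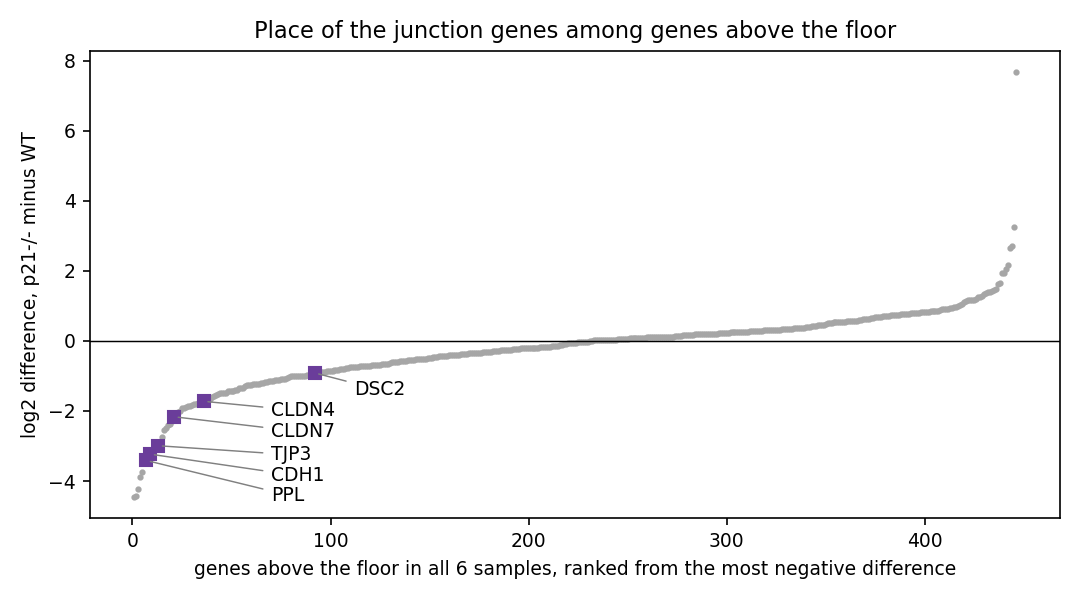
Log2 difference between p21-/- and WT cells, on the vertical axis, of 446 genes that exceeded the floor in every sample, ordered along the horizontal axis from the most negative, with the 6 junction genes marked. PPL, CDH1 and TJP3 lie among the first 13 genes, and DSC2 lies at place 92.

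The spread between replicates also differed between the lines. For 5 of the 6 genes the SD of the log2 values was larger in WT samples, and the median SD over the 446 genes was 0.160 in WT and 0.0634 in p21-/- samples. WT replicate 1 was the lowest WT sample for CDH1, CLDN4, CLDN7 and TJP3, but not for DSC2 and PPL, and it was the lowest for 59.0% of the 446 genes. Without WT replicate 1 the log2 difference of CLDN7 was -2.31, and the 6 genes stayed lower in p21-/- cells without any 1 of the samples.

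The genes nearest in pattern were sought over all 6 samples, by the root mean square difference of log2 values centered on the WT mean, among 440 other genes above the floor. TJP3 had S100A14 as its nearest (0.0691), a gene with 1841 ± 400 normalized counts in WT and 223 ± 6.01 in p21-/- samples (SD, n = 3 each). DSC2 had ST14, which encodes the epithelial protease matriptase, and ADAM15, a metalloproteinase (0.0551 and 0.0701). CLDN4 had COL1A1 and CLIC4 (0.0957 and 0.102), and CLDN7 had EREG and RGCC (0.110 and 0.141). CDH1 had PXDN and ITGA3 (0.168 and 0.185), and PPL had the epithelial transcription factor ELF3 and CDKN1A itself (0.179 and 0.258). The second gene nearest to TJP3 was ITGA3 as well (0.176). Among the 6 junction genes themselves, CDH1 and PPL lay 0.198 apart, and DSC2 was 0.581 from the nearest of the other 5. These values describe likeness over 6 samples of 2 lines, in which any pair of genes with a similar difference lies close.

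To see how other parts of the junctions behaved, 24 further junction genes of the table were tested, from lists of adherens, tight, desmosome, gap and hemidesmosome genes set by gene function. In limma with Benjamini-Hochberg adjustment over 770 genes, 8 of the 24 were lower and 2 higher in p21-/- cells at an adjusted p below 0.05, beside 26.0% lower and 21.8% higher among all 770 genes. These counts depended on the scaling, with 8 higher after median scaling and 7 with TMM (trimmed mean of M values), and with 5 lower after quantile normalization and 20 lower after scaling to housekeeping candidates. Their median log2 difference was -0.12, the same as that of all genes, and this is the value taken by genes that no sample showed above the floor. The calls lay in the tight junction, desmosome and hemidesmosome lists, and of the 17 genes of the adherens, tight and desmosome lists 6 fell and 0 rose with the authors' scaling, against 4 lower and 4 higher after median scaling and 15 lower and 0 higher with the housekeeping candidates. Over all 770 genes, 169 were lower and 251 higher after median scaling, and 155 and 214 after quantile normalization. With TMM these counts were 180 and 226, and with the housekeeping candidates 529 and 97.

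Adherens junction partners of E-cadherin were measured at high level in both lines. CTNNB1, which encodes β-catenin, had 12456, 13134 and 15365 normalized counts across the WT line, against 15625, 15464 and 15044 without p21. The lines overlapped, with a log2 difference of 0.18 (95% interval -0.02 to 0.37, adjusted p = 0.136 from limma). CTNND1, which encodes p120-catenin, had 3198 ± 188 and 3336 ± 21.2 normalized counts (SD, n = 3 each) in WT and p21-/- samples, a log2 difference of 0.06 (95% interval -0.11 to 0.24, adjusted p = 0.529 from limma). The log2 ratio of CDH1 over CTNNB1 within a sample was -2.47, -2.19 and -2.39 in the WT line and -5.85, -5.76 and -5.67 in the p21-/- line, a 10.6-fold change. Of the other cadherins, CDH2, which encodes N-cadherin, and CDH11 were at the floor in all 6 samples, while CDH13 was at the floor in 1 WT and 2 p21-/- samples and did not exceed 42.1 normalized counts. PTPRM, a receptor phosphatase that binds cadherin complexes, had 285 ± 48.2 and 280 ± 43.9 normalized counts (SD, n = 3 each). None of these 6 genes passed the limma test with the authors' scaling and all samples, where 0 had an unadjusted p below 0.05, beside 26.0% lower and 21.8% higher over the panel. Without WT replicate 3, CTNNB1 was called higher (log2 difference 0.27, adjusted p = 0.0169 from limma). In limma CTNNB1 and CTNND1 were called higher after median scaling (adjusted p = 0.00247 and 0.00890) and with TMM (adjusted p = 0.00419 and 0.0347), but lower with the housekeeping candidates (adjusted p = 0.0330 and 0.00193). After quantile normalization CTNND1 was called higher (adjusted p = 0.00742 from limma) and CTNNB1 was not (adjusted p = 0.253). With the housekeeping candidates all 6 genes of the list were called lower, beside 529 of the 770 genes of the panel. Among the 6 were CDH2 and CDH11, which were at the floor in every sample.

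In the tight junction list, 5 of 10 further genes fell and 0 rose with the authors' scaling, beside 26.0% lower and 21.8% higher over the panel, and 5 had an unadjusted p below 0.05. After median scaling 3 of the 10 were lower, namely OCLN, CGN and LLGL2, and 2 higher, namely CLDN3 (adjusted p = 0.00347) and JAM2 (adjusted p = 0.00829) in limma, whereas 8 were lower and 0 higher with the housekeeping candidates. Of all 770 genes, 169 were lower and 251 higher after median scaling, and 529 lower and 97 higher with the housekeeping candidates. CGN, which encodes the cytoplasmic adaptor cingulin, fell from 356, 322 and 375 normalized counts in the WT line to 99.3, 94.7 and 95.6 in the p21-/- line, a log2 difference of -1.85 (standard error 0.149, adjusted p = 2.78e-08 from limma). LLGL2, a cell polarity protein, had 859 ± 131 normalized counts in WT cells and fell to 336 ± 37.5 (SD, n = 3 each; log2 difference -1.35, standard error 0.133, adjusted p = 3.31e-07 from limma). OCLN, which encodes the strand protein occludin, fell from 1433, 1791 and 1495 in the WT line to 796, 651 and 669 in the p21-/- line (log2 difference -1.15, standard error 0.113, adjusted p = 2.89e-07 from limma). For these 3 genes the lines did not overlap. F11R, which encodes the adhesion molecule JAM-A, and CXADR, its relative at the tight junction, fell less, with log2 differences of -0.34 (adjusted p = 0.00273) and -0.36 (adjusted p = 0.00854) in limma. Both calls depended on the scaling, with adjusted p-values of 0.224 and 0.219 after median scaling, and that of CXADR was 0.0556 without p21-/- replicate 3.

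A close relative of CLDN4 was also in the table. CLDN3 lies 60.7 kb from CLDN4 on chromosome 7 and encodes another claudin. It had 244, 247 and 278 normalized counts across the WT line, against 309, 318 and 290 without p21. The lines did not overlap, but the log2 difference of 0.25 did not pass the test (95% interval -0.03 to 0.54, adjusted p = 0.148 from limma). In 4 of 16 alternatives limma called CLDN3 higher. These were median scaling (0.47, adjusted p = 0.00347), quantile normalization (0.56, adjusted p = 0.00066), TMM (0.38, adjusted p = 0.00998) and background subtraction (0.30, adjusted p = 0.0404). After scaling to housekeeping candidates the log2 difference was -0.13 (adjusted p = 0.317 from limma). The log2 ratio of CLDN4 over CLDN3 was 3.83 ± 0.0831 in WT and 1.85 ± 0.0891 in p21-/- samples (SD, n = 3 each), a 3.94-fold change. No WT sample had CLDN1, JAM2 or JAM3 above the floor, and 1, 2 and 0 p21-/- samples did.

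The single further desmosome gene was EVPL, which encodes envoplakin, the partner with which periplakin is known to form dimers. EVPL fell from 545, 526 and 794 normalized counts in the WT line to 316, 342 and 338 in the p21-/- line, a log2 difference of -0.88 (standard error 0.150, adjusted p = 0.000111 from limma). WT replicate 3 was the high sample, and the lines did not overlap. The log2 ratio of PPL over EVPL was 2.07, 2.01 and 1.58 in the WT line and -0.77, -0.65 and -0.53 in the p21-/- line, a 5.80-fold change, and the difference of EVPL lay beside that of DSC2 (-0.91) rather than that of PPL (-3.41).

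Hemidesmosomes, which anchor the basal cell surface to the matrix instead of to a neighboring cell, had 6 genes in the table. With the authors' scaling 2 of them fell, 2 rose and 2 did not pass the test, beside 26.0% lower and 21.8% higher over the panel. After median scaling 2 were lower and 4 higher, beside 169 lower and 251 higher of the 770 genes. With the housekeeping candidates 4 were lower and 1 higher, beside 529 and 97 of the 770 genes. ITGB4, which encodes integrin β4, and LAMB3, a laminin chain, fell, with log2 differences of -1.24 (standard error 0.120, adjusted p = 2.51e-07) and -0.49 (standard error 0.136, adjusted p = 0.00660) in limma. LAMA3, another laminin chain, rose, with a log2 difference of 0.75 (standard error 0.196, adjusted p = 0.00411) in limma. ITGA6, which encodes the integrin α6 partner of ITGB4, had 4136 ± 355 and 4239 ± 20.1 normalized counts (SD, n = 3 each; 95% interval of the log2 difference -0.14 to 0.22), and DST, which encodes a plakin, had 1884 ± 238 and 1967 ± 62.8 (95% interval -0.14 to 0.28). With other scaling both were called in limma, higher after median scaling (adjusted p = 0.00960 for ITGA6 and 0.00729 for DST) and lower with the housekeeping candidates (adjusted p = 0.00120 and 0.00535). The call of LAMB3 was lost after quantile normalization (adjusted p = 0.416) and that of LAMA3 after scaling to housekeeping candidates (adjusted p = 0.0974), and both after background subtraction (adjusted p = 0.0860 and 0.0737). GJA5, the single gap junction gene, was at the floor in all 6 samples.

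**Figure D5:**
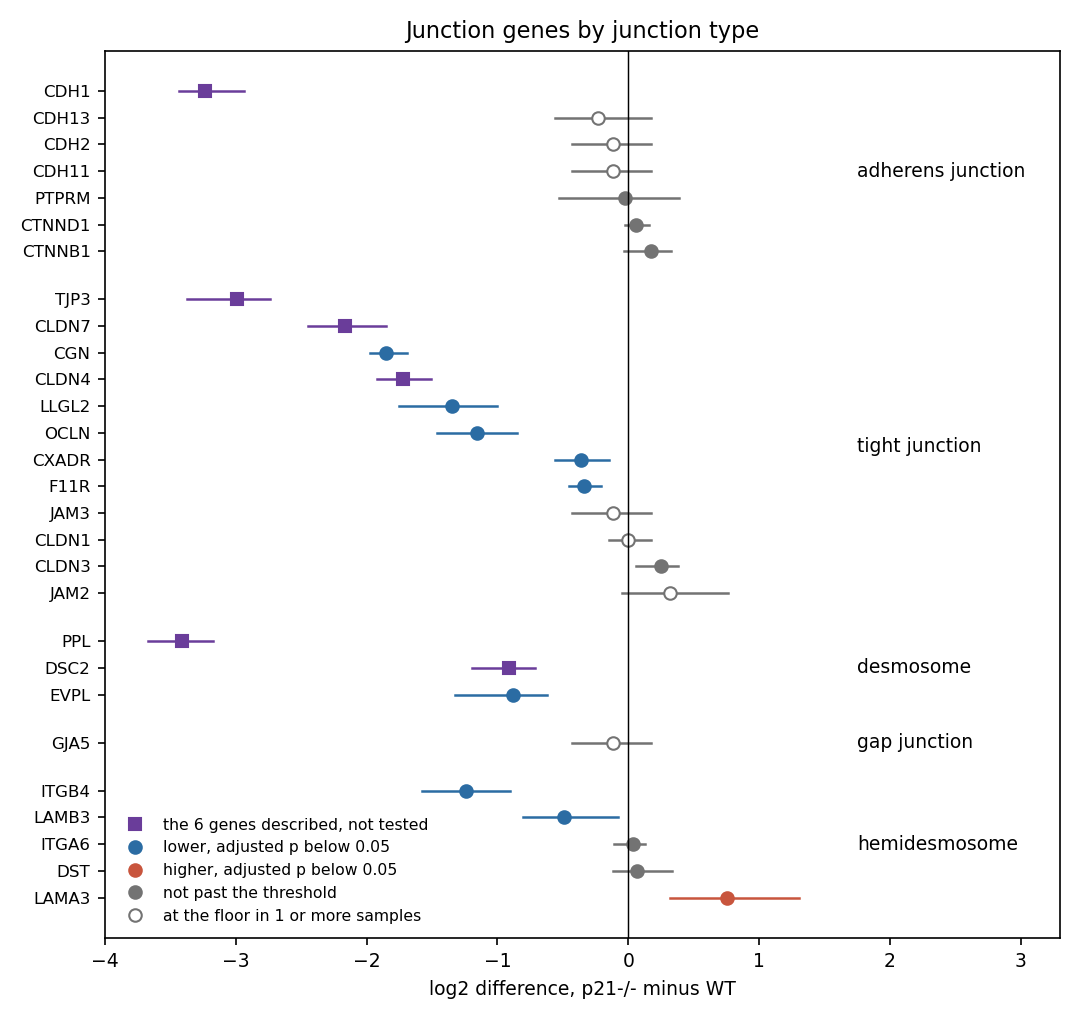
Log2 difference between p21-/- and WT cells of the junction genes described here by junction type, with the mean as a symbol and a bar from the lowest to the highest of the 9 pairs of samples. The 6 genes described without a test are purple squares, further genes are blue where they fell, red where they rose and gray where they did not pass limma's adjusted p of 0.05, and open symbols have 1 or more samples at the floor. In the adherens list CDH1 lies at -3.23 while CTNNB1 and CTNND1 lie near 0.

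The scaling between samples sets where 0 lies for these differences. Relative to the authors' normalization, the median log2 difference of these 446 genes was higher by 0.21 after median scaling, by 0.18 after quantile normalization and by 0.13 with TMM, and it fell by 0.38 after scaling to 30 housekeeping candidates. With these settings CTNNB1 had log2 differences of 0.39, 0.19, 0.31 and -0.21, and CTNND1 of 0.28, 0.32, 0.19 and -0.32, so the direction of both catenins flipped with the housekeeping candidates. The 6 junction genes were lower in p21-/- cells under all 4 settings, from -0.70 for DSC2 after median scaling to -3.80 for PPL with the housekeeping candidates. CGN, OCLN, LLGL2, EVPL and ITGB4 kept the call and direction under all 16 alternatives run.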

How the data were processed

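Total RNA of 3 WT and 3 p21-/- samples of HCT116 cells was measured on the NanoString nCounter system with the PanCancer Progression Panel. The authors normalized the barcode counts in nSolver, by positive controls and housekeeping genes, and deposited a signal per gene, in normalized counts, for 770 genes, with raw counts for 6 positive and 8 negative controls. In these values the 30 housekeeping candidates had geometric means of 888, 921 and 934 in WT and 1200, 1195 and 1188 in p21-/- samples. Scaling to the same genes would have left them equal, and the reason for the difference was not tested. In each sample the lowest deposited signal equaled the mean plus 2 SD of its negative controls and is called the floor. Samples were grouped by their labels, and per the methods the harvest was repeated for each replicate of a line.

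The members and lists were chosen with earlier results of these data known. Values were tested as log2(value + 1), without a filter, in limma 3.58.1 (R 4.3.3; lmFit, and eBayes with an intensity trend), two-sided, with Benjamini-Hochberg adjustment over 770 genes and a threshold of 0.05. The study used NanoStringDiff on raw counts, and a count test was not run here because values below the floor had been replaced. An exact permutation of 3 against 3 samples cannot give a two-sided p below 0.1. limma was tested on simulated data. The factor between normalized and barcode counts was found per sample from the steps between low values, with a tolerance of 0.1 counts, and Poisson intervals (95%) on these counts cover counting error only.

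Named were the 6 junction genes, CDKN1A, the genes of the adherens, tight, desmosome, gap and hemidesmosome lists (values for those past the threshold and for at most 5 others of a list above the floor), and the 2 nearest genes of each junction gene. Some genes of these lists enter the counts but are not reported here. CDH13, PDGFRB and the genes of the closing section were named after their values were seen. Of the 770 symbols, 755 matched the RefSeq gene table (GRCh38.p14), the source of coordinates. Alternatives were other pseudocounts (0.5 and 10), a minimum mean of 20, median, quantile, trimmed-mean and housekeeping scaling, a constant prior variance, a replicate block, background subtraction and leaving out each sample.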

Additional observations from a re-analysis of the deposited data

How the results depend on the processing

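Of the recomputed differences and ratios of the 6 junction genes and counts of calls, 175 stayed within the replicate SD or, for counts, within 1.5 times of the value reported, and 29 moved. The 6 genes stayed lower throughout. Single further genes did change direction, among them CTNNB1, CTNND1, CLDN3 and EPCAM with the housekeeping candidates, and PTPRM, ITGA6 and DST. The log2 differences of CDH1, CLDN4, CLDN7, TJP3, DSC2 and PPL were -3.02, -1.51, -1.95, -2.78, -0.70 and -3.20 after median scaling, and -3.62, -2.11, -2.55, -3.38, -1.30 and -3.80 after scaling to housekeeping candidates. Quantile normalization gave -2.94 for CDH1, -1.52 for CLDN4, -2.76 for TJP3, -0.75 for DSC2 and -3.16 for PPL. The trimmed mean of M values gave -1.59 for CLDN4 and -0.78 for DSC2, and background subtraction gave -3.29 for TJP3 and -3.62 for PPL. Leaving out 1 sample at a time gave -3.36 to -3.17 for CDH1, -1.81 to -1.65 for CLDN4, -2.31 to -2.05 for CLDN7, -3.06 to -2.86 for TJP3, -0.97 to -0.83 for DSC2 and -3.49 to -3.32 for PPL.

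Of the 24 further junction genes, limma called 8 lower and 2 higher. The lower count was 5 after quantile normalization and 20 with the housekeeping candidates, 4 of which were at the floor in all 6 samples. The higher count was 8 after median scaling, 5 after quantile normalization, 7 with the trimmed mean of M values and 1 with the housekeeping candidates. Over all 770 genes, 200 lower and 168 higher calls became 529 and 97 with the housekeeping candidates. The share of higher calls was 45.7% as reported, 59.8% after median scaling, 58.0% after quantile normalization, 55.7% with the trimmed mean and 15.5% with the housekeeping candidates. Without 1 sample at a time there were 7 to 8 lower and 2 to 3 higher junction genes, and 187 to 219 lower and 143 to 177 higher genes of the panel. Leaving out 1 sample at a time, the shifts of the log2 ratios ran from 0.05 to 0.28 for CDH1 over PPL, -0.31 to -0.12 for CDH1 over TJP3, 0.72 to 1.00 for CLDN7 over TJP3, 0.33 to 0.50 for CLDN4 over CLDN7, -0.87 to -0.75 for CLDN4 over DSC2, 2.39 to 2.63 for DSC2 over PPL and -2.42 to -2.21 for CDH1 over DSC2. With the replicate number as a block there were 8 lower and 2 higher junction genes, and 202 lower and 161 higher genes of the panel. Same-numbered samples correlated at 0.08, -0.05 and 0.05 in their deviations from the line means over 446 genes. Samples of different number correlated at -0.11 to 0.08. These values show no shared effect of the replicate number, but they cannot tell whether same-numbered samples were handled together. The cause of the moves was not tested. Transcripts at the floor have only an upper limit, and 3 samples per line limit the precision.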

Other observations

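Other adhesion molecules of epithelial and mesenchymal cells were in the table with 11 genes, of which 2 rose, 1 fell and 8 did not pass limma's test with Benjamini-Hochberg adjustment, beside 26.0% lower and 21.8% higher over the panel. These 8 were at the floor in each WT sample, 6 of them in every sample of both lines. With the housekeeping candidates 9 of the 11 were called lower and 1 higher, genes at the floor included, beside 529 lower and 97 higher of the 770 genes. MCAM, a melanoma cell adhesion molecule of the immunoglobulin superfamily, rose from 277, 371 and 384 normalized counts in the WT line to 559, 594 and 557 in the p21-/- line (log2 difference 0.74, standard error 0.137, adjusted p = 0.000236 from limma). The lines did not overlap. ICAM1, an adhesion receptor for leukocytes, had 84.4, 153 and 157 normalized counts in the WT line, where no p21-/- sample exceeded the floor, which makes it at least 4.09-fold lower there (limma adjusted p = 1.05e-06).

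EPCAM, an adhesion molecule widely used as an epithelial marker, was not lower in p21-/- cells. It had 5692 ± 377 normalized counts in WT and 6612 ± 358 in p21-/- samples (SD, n = 3 each), and its log2 difference of 0.22 passed the test (standard error 0.0842, adjusted p = 0.0444 from limma). The call was lost in 8 of 16 alternatives, and the direction turned with the housekeeping candidates (log2 difference -0.17, adjusted p = 0.0521 from limma). The log2 ratio of CDH1 over EPCAM within a sample was -1.30, -0.91 and -1.06 in the WT line and -4.69, -4.48 and -4.46 in the p21-/- line, a 10.9-fold change.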
